A study of Macaca fascicularis with 605 samples.

Results

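Embryonic stem cells (ESCs) of the cynomolgus monkey line 656BTAG, kept in a medium with bFGF and IWR1, were compared with ESCs of the lines CMK6 and CMK9, kept in a conventional medium on feeder cells. The cells were chosen by their titles: 8 cells of 656BTAG, 13 of CMK6 and 7 of CMK9, which together were 28 of the 605 single cells of the series. The other cells came from embryos of embryonic days 6 to 20, gonads and primordial germ cell-like cells (PGCLCs). The gonadal germ cells were of embryonic days E36, E43, E50 and E51. The PGCLCs were at day 8 of induction and the 656BTAG ESCs at day 0. All 605 cells were profiled by SC3-seq, in which cDNA of a single cell is amplified and tags near the 3-prime end of each transcript are read. Levels are in RPM, a gene's reads relative to all mapped reads of its cell.

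Per the labels, 656BTAG was kept undifferentiated in AITS medium with 20 ng/ml bFGF and 2.5 nM IWR1 (the unit as the labels give it). CMK6 and CMK9 grew on mouse embryonic feeders in DMEM/F12 with 20% KSR, sodium pyruvate, GlutaMax, non-essential amino acids, 2-mercaptoethanol, 1000 U/ml mouse LIF and 4 ng/ml human bFGF. The labels name no genotype for CMK6 and CMK9, and the sources used here do not give what BTAG stands for. They do not say how many cultures or animals stand behind a line, so each line was treated as 1 culture and its cells not as replicates. By the protocols, ESCs were detached as clumps and then trypsinised, whereas feeder-free cells were dissociated with TrypLE; the labels do not call 656BTAG feeder-free in so many words. All 8 656BTAG cells carry the title code MS168, 10 CMK6 cells and all CMK9 cells MS130, and 3 CMK6 cells MS132. The PGCLCs, made from 656BTAG, all carry MS168 as well, so their values do not part line from title code. Line, medium and title code, and feeder cells and dissociation where these differed, therefore cannot be told apart in any difference below.

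IWR1 blocks the tankyrases, enzymes that mark the scaffold protein AXIN for destruction. With AXIN stabilised, β-catenin is degraded and WNT target genes are less active, which in primate pluripotent cells limits spontaneous differentiation. Basic FGF acts through FGF receptors and ERK and sustains the primed pluripotent state of primate ESCs, while feeder cells supply further factors and matrix.

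By median the 656BTAG libraries were the deepest, with 1934660 to 2948506 reads per cell, against 1037989 to 2126278 in CMK6 and 853870 to 1587081 in CMK9. Cells 1, 3 and 4 of 656BTAG stood apart: 12014, 12240 and 12381 genes were above 0 RPM in them, against 9049 to 10430 in the other 5 cells of the line, 9521 to 10910 in CMK6 and 10022 to 11662 in CMK9. With all cells thinned to 853870 reads, the median number of genes was 8830 in 656BTAG, 10191 in CMK6 and 10440 in CMK9. The median Pearson correlation of log2(RPM + 1) between cells of a line was 0.795 in 656BTAG, 0.856 in CMK6 and 0.872 in CMK9. The part of these differences in the results was not tested; results that turn on cells 1, 3 and 4 are given without them too. The description of 1 CMK6 cell (cell 13) names CMK9, and it was kept in CMK6 as its title states.

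A gene was said to separate 656BTAG when its mean RPM differed at least 4-fold, after adding 1 RPM, from CMK6 and from CMK9 in the same direction, and the quartiles over cells did not overlap (the lower quartile of the higher line lay above the upper quartile of each lower line). Of 9518 genes that reached a mean of 10 RPM in 1 line or more, 61 (0.641%) were higher in 656BTAG and 308 (3.24%) were lower. The genes lower in 656BTAG included the imprinted genes NNAT, PEG3, SLC38A4 and SNRPN, the pluripotency factors PRDM14 and HESX1, and the nucleolar genes PINX1 and USP36. Those higher included UCP2, SEMA5B and the histone genes H1-10 and MACROH2A2. The balance of directions depended on the scaling: after quantile normalization of the cells, 51.4% of 294 separating genes were higher, against 16.5% of the 369 as deposited, and 54.7% of the 369, all 61 higher genes among them, still separated. Without cells 1, 3 and 4 of 656BTAG, 53 genes were higher and 682 lower. In 15 of the higher genes (0.158%) and 38 of the lower (0.399%) no 656BTAG cell overlapped any feeder cell. The genes just inside and just outside the 4-fold limit hardly differed: the smaller log2 ratio was 2.03 for ACTA2 and 2.07 for DISP1, both inside, and 1.99 for CHST8, outside. Among lower genes it was -2.01 for PXN, inside, and -1.99 for ID4, outside. The 2 feeder lines differed from each other by the same rule in 1.62% of genes, 67 (0.704%) higher and 87 (0.914%) lower in CMK6.

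**Figure D1:**
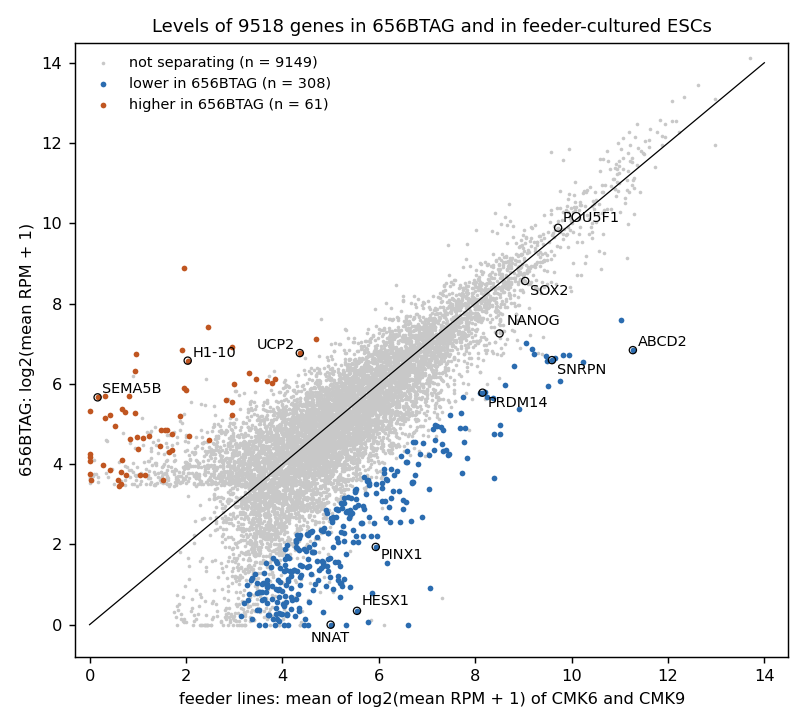
Each point is 1 of 9518 genes, with the mean of log2(mean RPM + 1) of CMK6 and CMK9 on the x axis and log2(mean RPM + 1) of 656BTAG on the y axis; the line marks equal levels. The 308 genes lower in 656BTAG (blue) reach down to 0 on the y axis, as NNAT does, while POU5F1 lies near the line.

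The only replicate error across lines is the spread between the 2 feeder lines, most of whose cells share the code MS130, and a p-value from it assumes that 656BTAG would vary as they do. With limma on log2(mean RPM + 1) of the 3 lines, 1.96% of genes passed an adjusted p of 0.05, 39 genes (0.41%) higher and 1.55% lower in 656BTAG, and 28.7% of the separating genes were among them. When 2 PGCLC and 4 gonadal units shared the estimate of the spread, 10 genes passed, and after quantile normalization none did, although 1863 genes had an unadjusted p under 0.05. By edgeR on read counts recovered from the RPM, 389 genes passed (4.09%), 1.52% higher and 244 genes (2.56%) lower. The levels below are therefore descriptions of these 3 cultures, with the limma value where it helps to size a difference. A gene given without a limma value did not necessarily pass.

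The markers of ESCs were present in all 3 lines. Of 7 ESC markers, all were above 1 RPM on average in every line, and their summed level ran from 3521 to 4584 RPM in 656BTAG, 4772 to 6822 in CMK6 and 3925 to 6322 in CMK9. POU5F1, the transcription factor that anchors pluripotency, was at 697, 946 and 1347 RPM in 656BTAG (lowest, median and highest cell), at 597, 790 and 987 in CMK6, and at 602, 876 and 1136 in CMK9. SOX2, its partner at many enhancers, was at 149.1, 375 and 702 RPM in 656BTAG, 310, 526 and 1084 in CMK6, and 288, 477 and 865 in CMK9. The ranges of both genes overlapped between all lines, and neither separated 656BTAG. LIN28A, which blocks maturation of let-7 microRNAs, averaged 1757 ± 185 RPM in 656BTAG, 2589 ± 586 in CMK6 and 2138 ± 393 in CMK9 (SD over cells).

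Most markers of other cell types were low, and their part in the results was not tested. The fibroblast markers COL3A1 and DCN averaged at most 0.10 RPM in the feeder lines, and 3.76 and 0.32 RPM in 656BTAG. COL1A1, a collagen gene on the same list, was at 130 ± 127.3 RPM in 656BTAG, 438 ± 230 in CMK6 and 267 ± 242.7 in CMK9. COL1A2, also on that list, averaged 16.4 ± 19.2, 43.8 ± 44.2 and 25.8 ± 30.1 RPM in the same order. The summed level of the 8 fibroblast and feeder markers was 39.1 to 366 RPM in 656BTAG, 181 to 1001 in CMK6 and 105.3 to 772 in CMK9, and 3 of the 8 were at 0 in every cell of CMK6 and of CMK9. Sums for the 6 mesoderm markers stayed at or below 60.7 RPM in 656BTAG, 53.5 in CMK6 and 229.4 in CMK9. Sums for 6 endoderm markers reached 38, 102.6 and 55.3 RPM in the same order, and for 7 trophectoderm and amnion markers 33.4, 33 and 19.9 RPM. Germ cell markers summed to at most 123.2, 116.2 and 74.5 RPM, and neural markers, of which 5 of 6 were matched, to at most 37.5, 23.9 and 27.2 RPM.

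Among the core factors, PRDM14 differed most from the feeder lines. PRDM14, a repressor of differentiation genes that is also needed for germ cell specification, was at 0.68, 17.4 and 174 RPM in 656BTAG, at 131.4, 232 and 741 in CMK6 and at 211.9, 278 and 554 in CMK9. Its highest 656BTAG cell lay within the CMK6 range but below every CMK9 cell. The log2 ratio was -2.27 against CMK6 and -2.48 against CMK9 (adjusted p = 0.0306, limma; 0.426 with the shared spread). NANOG, a core factor whose level is known to vary between single ESCs, did not separate the lines: it was at 0.36, 181 and 247 RPM in 656BTAG, 161.8, 346 and 651 in CMK6 and 275, 328 and 440 in CMK9. All 8 656BTAG cells were below all CMK9 cells for NANOG, with a log2 ratio of -1.15. Of the 15 core pluripotency genes, 13 were tested and PRDM14 alone separated the lines, beside 3.24% of all genes tested that were lower. The median log2 ratio of the 13 was -0.88 against CMK6 and -0.41 against CMK9, beside -0.10 and -0.19 over all genes tested.

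A group of further pluripotency-associated factors was almost silent in 656BTAG; apart from NR5A2 they were chosen after their values were seen. HESX1, a homeobox repressor of epiblast and forebrain, was above 0 in 3 of 8 656BTAG cells and never over 1.01 RPM. In CMK6 it was at 18.8, 60.1 and 147.8 RPM and in CMK9 at 3.75, 29.7 and 66.5, so that no 656BTAG cell reached any feeder cell. VENTX, a homeobox gene of the primate epiblast, was above 0 in 1 of 8 656BTAG cells, at 0.88 RPM, against medians of 9.29 RPM in CMK6 and 31.3 in CMK9. FOXD3, a forkhead factor of epiblast and neural crest, had medians of 0.88, 22.1 and 27.2 RPM in 656BTAG, CMK6 and CMK9, with 3 CMK6 cells at 0. NR5A2, a nuclear receptor that can act on the POU5F1 gene, had medians of 0.00, 16.3 and 13.4 RPM. NR5A2 and FOXD3 no longer separated the lines after quantile normalization, whereas HESX1 and VENTX did. By limma, VENTX and NR5A2 did not pass. In the PGCLCs made from 656BTAG, HESX1 averaged 0.10 RPM in aRB27 medium and was listed at 0 in GK15.

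**Figure D2:**
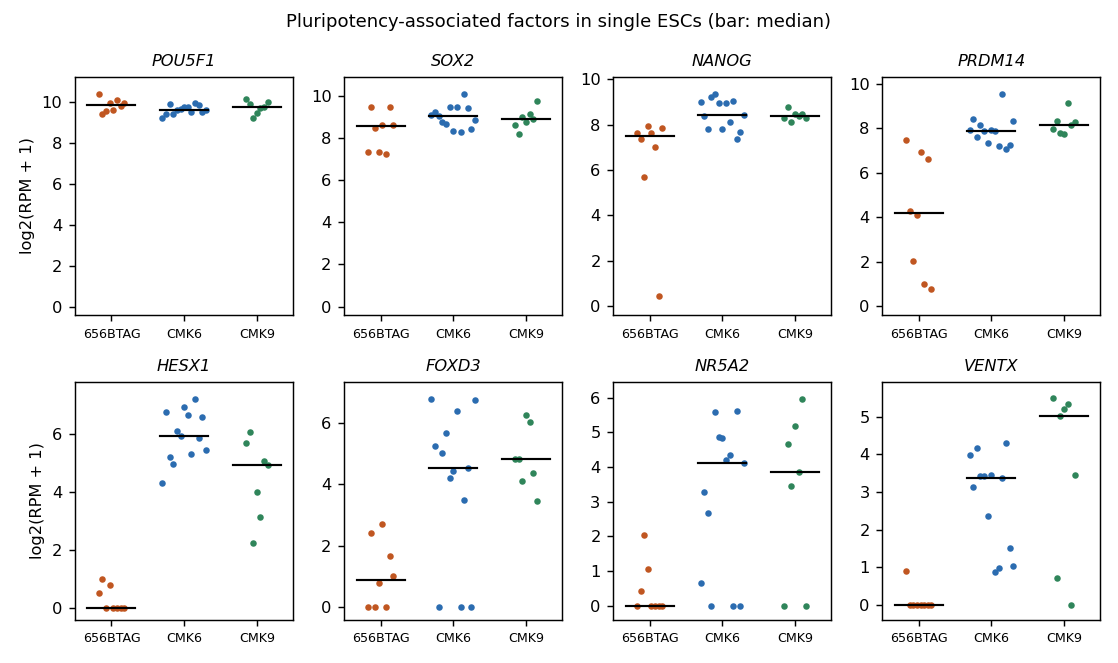
Each panel gives log2(RPM + 1) of a gene on the y axis, with 1 point per cell for 656BTAG (8 cells), CMK6 (13) and CMK9 (7) and a bar at the median. POU5F1 and SOX2 overlap between lines, while HESX1 in 656BTAG stays at or below 1.01 RPM.

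Genes of the naive and primed states gave no common shift. Of 14 naive pluripotency genes, 4 passed the filter on low values and NR5A2 alone separated the lines, as lower, beside 3.24% of all genes tested. TFCP2L1, a factor of the naive state, was above 0 in 1 of 8, 3 of 13 and 1 of 7 cells. Of 20 primed pluripotency genes, 19 were tested and none separated 656BTAG, beside 3.88% of all genes tested. Their medians were 0.06 and -0.28. DNMT3B, the DNA methyltransferase typical of primed cells, averaged 1954 ± 879 RPM in 656BTAG, between CMK9 (1277 ± 495) and CMK6 (2562 ± 1137). SFRP1, a secreted WNT antagonist, averaged 1476 ± 658, 1345 ± 376 and 987 ± 161.2 RPM in 656BTAG, CMK6 and CMK9.

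None of the WNT target genes, the readout nearest to IWR1, separated 656BTAG on the deposited scale. Of 26 in the list, 11 passed the filter and 0 separated 656BTAG, beside 3.88% of all genes tested in either direction; with the 4-fold difference alone, without the condition on cells, NKD2 was lower, as were 4.79% of all genes. The median log2 ratio of the 11 was 0.38 against CMK6 and -1.07 against CMK9, opposite in sign. AXIN2, the feedback inhibitor used most often as a readout of WNT signalling, was at 3.38, 12.5 and 86.3 RPM in 656BTAG, 0.00, 0.53 and 26.8 in CMK6 and 0.00, 0.00 and 7.31 in CMK9. It was above 0 in all 8 656BTAG cells, in 7 of 13 CMK6 cells and in 1 of 7 CMK9 cells. Its mean of 23.02 RPM in 656BTAG was 8.27 RPM without cells 1, 3 and 4, and 6.67 in CMK6 and 1.04 in CMK9. The limma difference was 2.60 ± 1.09 (log2, SE; adjusted p = 0.228), and AXIN2 counted as higher in 656BTAG after quantile normalization.

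SP5, LEF1 and T had few reads in all 3 lines. SP5, a transcription factor gene induced by β-catenin, averaged 3.47 RPM in 656BTAG (0.69 without cells 1, 3 and 4), 0.04 in CMK6 and 0.22 in CMK9. LEF1, which carries β-catenin to DNA, was above 0 in 1 of 8, 1 of 13 and 2 of 7 cells. T (the symbol of the table for TBXT), a primitive streak gene, averaged 1.72, 0.80 and 0.00 RPM. NKD2, a WNT feedback antagonist, was above 0 in 1 of 8 656BTAG cells, at 0.73 RPM, in 4 of 13 CMK6 cells and in all 7 CMK9 cells, where it reached 36.1 RPM.

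MYC and CCND1, growth genes under WNT and other inputs, were lower on average in 656BTAG but overlapped with the feeder lines. MYC was at 0.36, 6.54 and 266 RPM in 656BTAG, 6.92, 63.2 and 205.4 in CMK6 and 66.99, 79.03 and 295 in CMK9. CCND1 averaged 18.3 ± 24.6, 71.8 ± 126.8 and 75.7 ± 79.04 RPM. Without cells 1, 3 and 4 of 656BTAG, both MYC, at 6.19 RPM, and CCND1, at 16.4 RPM, separated the line as lower. TCF7, a DNA-binding partner of β-catenin, averaged 17.1, 33.9 and 45.6 RPM, and TNFRSF19, a receptor gene, 31.7, 9.35 and 6.87 RPM. BAMBI, which encodes a pseudoreceptor of the TGF-β family, averaged 69.03, 52.9 and 52.1 RPM, and ZNRF3, a ligase that removes WNT receptors, 23.5, 29.03 and 33.7 RPM. APCDD1 (15.8, 8.93 and 38.9 RPM) and MIXL1 (5.26, 1.42 and 12.2) were each between the feeder lines. Without cells 1, 3 and 4 the 656BTAG mean of MIXL1 was 0.56 RPM, below both feeder lines. The targets NKD1, RNF43, LGR5, NOTUM, DKK1, DKK4, WIF1, CDX1, CDX2, MSX1, MSX2 and SP8 did not pass the filter, as none of them averaged over 9.15 RPM in any line.

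**Figure D3:**
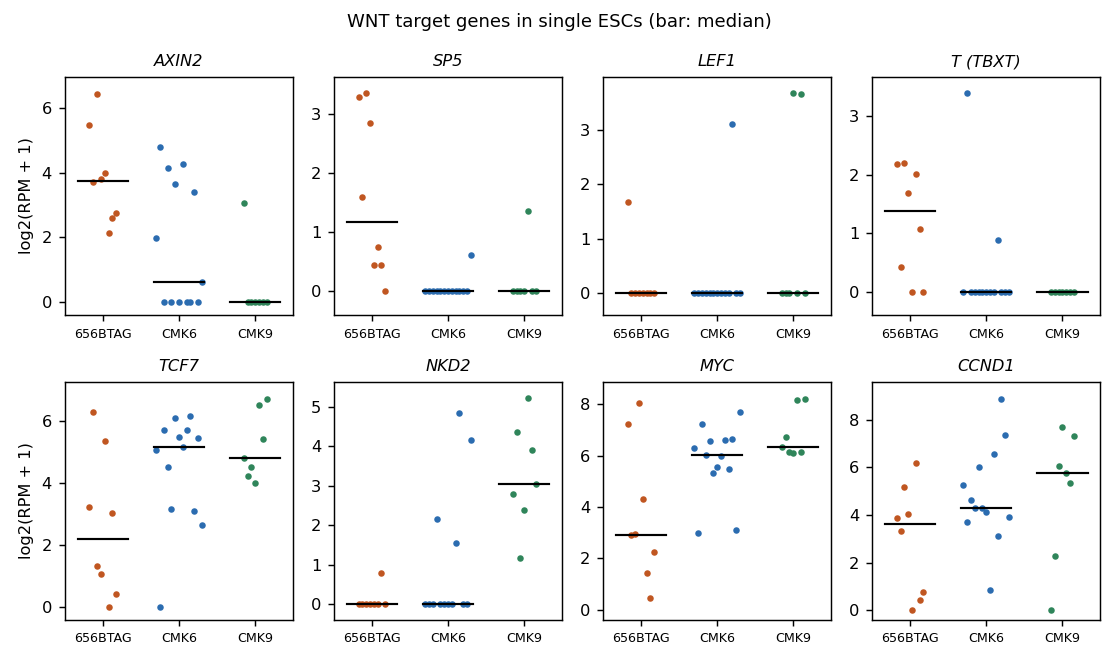
Each panel gives log2(RPM + 1) of a WNT target gene on the y axis, with 1 point per cell of each line and a bar at the median. AXIN2 is above 0 in all 8 656BTAG cells and in 1 of 7 CMK9 cells, whereas LEF1 is at 0 in most cells of all lines.

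Among the genes of the pathway's machinery, none separated 656BTAG as deposited, beside 3.88% of all genes tested. Of 20 intracellular WNT components all 20 were tested, with medians of -0.15 and -0.22, and of 35 ligands, receptors and antagonists 18 were tested, with medians of 0.17 and 0.36. After quantile normalization the medians of the intracellular list were 0.28 and -0.01, so its direction against CMK6 turned with the scaling, and 2 receptor genes, FZD1 and FZD2, counted as higher. The tankyrase genes TNKS and TNKS2, whose products IWR1 inhibits, averaged 63.1 and 21.9 RPM in 656BTAG, 36.7 and 31.1 in CMK6, and 67.3 and 34.5 in CMK9. AXIN1, the constitutive scaffold, averaged 17.8 ± 16.9, 48.6 ± 36.1 and 66.5 ± 32.9 RPM, with a log2 ratio of -1.40 against CMK6 and -1.85 against CMK9 (adjusted p = 0.103, limma). CTNNB1, which encodes β-catenin, averaged 731 ± 274, 368 ± 182 and 579 ± 196 RPM.

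For FGF and LIF, whose doses also differed between the media, 1 gene of each list separated 656BTAG, and the FGF list was lower by median. Of 24 genes of FGF signalling and ERK feedback, 22 were tested and PHLDA1 separated 656BTAG as lower, beside 3.24% of all genes tested. The medians of the 22 were -0.84 against CMK6 and -0.89 against CMK9, beside -0.10 and -0.19 over all genes tested. After quantile normalization they were -0.55 and -0.62, beside 0.09 and 0.08 over all genes tested. PHLDA1, an ERK-induced gene, was at 0.67, 19.2 and 218.9 RPM in 656BTAG, 22.5, 141.6 and 939 in CMK6 and 92.3, 297 and 655 in CMK9 (adjusted p = 0.0306, limma; 0.723 with the shared spread). DUSP6, the ERK phosphatase, averaged 155.9 ± 164.2 RPM in 656BTAG, between 66.95 ± 81.1 in CMK6 and 254 ± 85.8 in CMK9. Of 17 genes of LIF and STAT3 signalling, 14 were tested and SOCS3 separated 656BTAG as lower, beside 3.24% of all genes tested. The medians of the 14 were -0.08 against CMK6 and -0.34 against CMK9, beside -0.10 and -0.19 over all genes tested. SOCS3, the feedback inhibitor induced by STAT3, had medians of 1.70 RPM in 656BTAG, 16.4 in CMK6 and 39.9 in CMK9. It did not pass limma and no longer separated the lines after quantile normalization. The labels name LIF for the feeder medium alone, and its part in these values was not tested.

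Imprinted genes are expressed from a single parental allele under methylation set in the germ line. On a list of them, NNAT and SNRPN were among the 38 lower genes (0.399% of genes tested) in which no 656BTAG cell overlapped any feeder cell. The list was drawn up after the values were seen, so its count is no independent evidence: of 39 imprinted genes 21 were tested, 6 (PEG3, NNAT, SNRPN, PHLDA2, SLC38A4 and CCDC8) separated 656BTAG as lower, also after quantile normalization, and 0 as higher, beside 3.24% of all genes tested that were lower. NNAT, which encodes the membrane proteolipid neuronatin, was listed at 0 in all 8 656BTAG cells. It was at 10.98, 22.1 and 55.7 RPM in CMK6 and 8.10, 39.6 and 56.1 in CMK9, so that every feeder cell was above every 656BTAG cell. A count of 0 in the 21123337 reads of the 8 cells allows up to 0.142 RPM (3 reads; counting error only), so NNAT was at least 194-fold lower than in CMK6 and at least 246-fold lower than in CMK9.

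PEG3, a paternally expressed zinc finger gene, was also at 0 in all 8 cells, against 0.00, 25.6 and 87.6 RPM in CMK6 (12 of 13 cells above 0) and 0.84, 7.61 and 47.9 in CMK9. It was at least 237-fold lower in 656BTAG than in CMK6 and at least 90.4-fold lower than in CMK9, by bounds that cover counting error only. PEG3 did not pass limma, nor did SLC38A4 and ZFP57 below. SLC38A4, an amino acid transporter gene, was at 0 in all 8 cells and above 0 in 10 of 13 CMK6 and 6 of 7 CMK9 cells. NNAT, PEG3 and SLC38A4 were likewise at 0 RPM on average in both sets of PGCLCs made from 656BTAG, which share its title code MS168 as well as the line. In other cells of the series the mean of PEG3 ran from 7.58 to 60.9 RPM over the days of embryos and from 36.4 to 102.9 RPM over gonadal germ cells. The corresponding means were 0.00 to 6.57 and 0.00 to 0.20 RPM for SLC38A4 and 0.00 to 14.9 and 3.92 to 16.9 RPM for NNAT. ZFP57, a zinc finger gene that protects imprints and is not itself on the list, was at 0 in all 8 656BTAG cells and in all PGCLCs on average, and had medians of 18.2 RPM in CMK6 and 7.61 in CMK9; it ran from 1.24 to 46.8 RPM over embryo days and was at 0.00 on every gonadal day.

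SNRPN, a paternally expressed splicing protein gene, was at 1.87, 28.02 and 264 RPM in 656BTAG, 598, 947 and 1296 in CMK6 and 299, 681 and 880 in CMK9. No 656BTAG cell reached a feeder cell, and the difference was -3.00 ± 0.26 (log2, SE; adjusted p = 0.0273, limma; 0.0228 with the shared spread). SNRPN was at 217.4, 211.7 and 264.1 RPM in cells 1, 3 and 4 of 656BTAG and at 1.87 to 41.2 RPM in the other 5, whose mean was 14.02 RPM. PHLDA2 and CCDC8 never exceeded 0.74 and 0.51 RPM in 656BTAG and had medians of 8.30 and 4.73 RPM in CMK6 and 20.6 and 23.8 RPM in CMK9. Neither passed limma. The other imprinted genes tested did not separate 656BTAG, and their levels differed. ZDBF2, a paternally expressed zinc finger gene, averaged 0.96 RPM against 7.45 in CMK6 and 13.6 in CMK9, past the 4-fold limit but with overlapping quartiles, and separated the line as lower without cells 1, 3 and 4. MEST averaged 5.10, 20.3 and 9.25 RPM and UBE3A, a ubiquitin ligase gene, 93.4, 155.6 and 209 RPM in 656BTAG, CMK6 and CMK9. GNAS, which encodes a G protein subunit, averaged 1551 ± 288, 1031 ± 134.3 and 911 ± 128.3 RPM, and PEG10, a retrotransposon-derived gene, 38.8 ± 30.9, 30.9 ± 17.9 and 105.6 ± 48.6 RPM. NDN, near SNRPN in the genome of primates, was near 0 in 656BTAG (0.61 RPM) and in CMK9 (0.09 RPM) and at 12.7 RPM in CMK6.

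**Figure D4:**
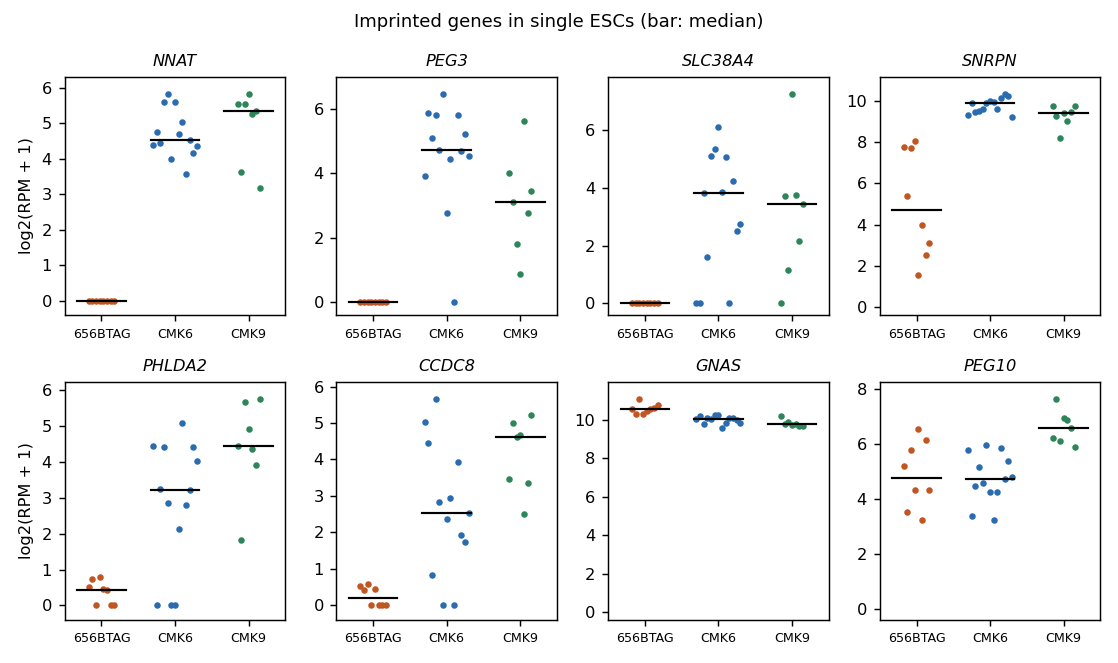
Each panel gives log2(RPM + 1) of an imprinted gene on the y axis, with 1 point per cell of each line and a bar at the median. NNAT, PEG3 and SLC38A4 are at 0 in all 8 656BTAG cells, while GNAS is at 1254 RPM or more in each of them.

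On a list of factors of ribosome assembly drawn up after the values were seen, 110 were tested and 13 separated 656BTAG as lower and 0 as higher, beside 3.24% lower and 0.641% higher over all genes tested, with medians of -0.66 and -0.74; after quantile normalization 6 were lower and 1 was higher. PINX1, a nucleolar protein that also binds telomerase, was at 0.00, 0.36 and 14.2 RPM in 656BTAG, 22.5, 56.8 and 86.8 in CMK6 and 44.4, 63.2 and 76.4 in CMK9. All 8 656BTAG cells were below all 20 feeder cells, and the difference was -4.002 ± 0.46 (log2, SE; adjusted p = 0.0306, limma; 0.142 with the shared spread). USP36, the nucleolar deubiquitinase that stabilises MYC, had medians of 2.03, 72.1 and 58.9 RPM (adjusted p = 0.0306, limma; 0.0395 with the shared spread). WDR43, a part of the small-subunit processome, averaged 23.3 ± 17.9, 142.6 ± 67.9 and 141.4 ± 29.3 RPM, and DDX21, a nucleolar helicase, 105.6 ± 45.5, 803 ± 595 and 439 ± 179 RPM. Unlike PINX1, USP36 and WDR43, DDX21 no longer separated the lines after quantile normalization.

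EEF2, the gene of the elongation factor that moves the ribosome along the mRNA, was chosen after its values were seen. It was at 54.3, 105.5 and 151.1 RPM in 656BTAG, 427, 645 and 1075 in CMK6 and 358, 809 and 839 in CMK9. The lowest feeder cell was above the highest 656BTAG cell, and the difference was -2.78 ± 0.21 (log2, SE; adjusted p = 0.014, limma; 0.109 with the shared spread). PGCLCs of the 656BTAG line averaged 222 RPM of EEF2 in aRB27 and 163.6 in GK15. RPL26L1, a ribosomal protein gene, had medians of 2.02, 60.95 and 68.7 RPM; it closely resembles RPL26, so how its reads were shared between the copies is uncertain.

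Immediate early genes respond within minutes to handling and growth factors. Of 20 immediate early and heat shock genes, 14 were tested and EGR2 and IER2 separated 656BTAG as lower, beside 3.24% of all genes; the medians were -1.29 against CMK6 and -0.52 against CMK9. IER2, a rapidly induced nuclear factor, was at 0.00, 3.49 and 108.2 RPM in 656BTAG, 36.7, 147.3 and 277 in CMK6 and 83.01, 159.1 and 312 in CMK9 (adjusted p = 0.0306, limma; 0.0689 with the shared spread). EGR2, a zinc finger gene induced by serum, was above 0 in 3 of 8 656BTAG cells and never over 1.01 RPM, against medians of 25.9 RPM in CMK6 and 13.5 in CMK9. ARC and NR4A1, further immediate early genes chosen after their values were seen, averaged 6.35 and 2.13 RPM in 656BTAG, 63.4 and 35.6 in CMK6, and 127.7 and 25.2 in CMK9. FOS did not separate the lines, at 27.7 ± 28.6, 85.1 ± 140 and 50.7 ± 117.7 RPM. How 656BTAG was dissociated is not stated outright, and the part of dissociation in these values was not tested.

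TRIB3, a pseudokinase induced by amino acid shortage, was at 0.00, 1.42 and 28.2 RPM in 656BTAG, 0.00, 68.3 and 208 in CMK6 and 40.7, 112.2 and 141.4 in CMK9 (adjusted p = 0.0306, limma; 0.132 with the shared spread). Its highest 656BTAG cell overlapped CMK6, in which 1 cell was at 0, but no CMK9 cell. TRIB3 alone of 19 tested genes of amino acid and unfolded protein stress separated the lines, as lower, beside 3.24% of all genes. ASNS, another target of that response, averaged 176 ± 134.1, 178 ± 61.02 and 107.1 ± 41.5 RPM. Of 22 tested genes of glycolysis and hypoxia, VEGFA and CA9 separated 656BTAG as lower, beside 3.24% of all genes, also after quantile normalization. The medians of the 22 were -0.63 and -0.52, and -0.52 and -0.17 after quantile normalization. CA9, a carbonic anhydrase induced in hypoxia, was at 0 in all 8 656BTAG cells and above 0 in 11 of 13 CMK6 and 7 of 7 CMK9 cells. It was thus at least 100.5-fold lower than in CMK6 and at least 117.8-fold lower than in CMK9. These bounds cover counting error only, and CA9 did not pass limma. VEGFA, the angiogenic growth factor, had medians of 0.55, 39.7 and 73.5 RPM. PDK1, a hypoxia-induced kinase gene of the same list, averaged 15.6, 26.1 and 21.1 RPM and did not separate the lines, except as lower without cells 1, 3 and 4, at 1.76 RPM. SLC30A1, a zinc exporter gene, had medians of 1.05, 95.1 and 73.8 RPM, and 38.6 RPM in its highest 656BTAG cell.

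Of 22 tested genes of actin contractility and YAP, ACTA2 was higher in 656BTAG and CNN1 and CTGF were lower, beside 0.641% higher and 3.24% lower over all genes. CTGF, a YAP target, had medians of 12.8, 93.96 and 56.4 RPM, and CNN1, a smooth muscle calponin, 2.70, 29.8 and 31.4 RPM; neither separated the lines after quantile normalization, nor did CTGF without cells 1, 3 and 4. ACTA2, smooth muscle actin, averaged 27.8 ± 58.4 RPM in 656BTAG with a median of 3.23 RPM, and did not separate the lines without cells 1, 3 and 4. TAGLN, a further smooth muscle gene, was at 675, 1033 and 3328 RPM in 656BTAG, 0.00, 307 and 711 in CMK6 and 236, 430 and 1074 in CMK9. Its difference was 1.76 ± 0.30 (log2, SE; adjusted p = 0.0482, limma; 0.777 with the shared spread), below the 4-fold limit against CMK9. B2M, the invariant chain of MHC class I, averaged 1328 ± 457, 605 ± 305 and 1139 ± 189 RPM. MX1, an interferon-induced gene, was lower, with medians of 0.18, 16.4 and 9.0 RPM, and SDHC, a subunit of respiratory complex II, was at 0.00, 2.80 and 14.1 RPM in 656BTAG against at least 21.2 RPM in every CMK6 and 32.5 in every CMK9 cell. MX1 and SDHC did not pass limma and did not separate the lines after quantile normalization.

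SPP1, the secreted phosphoprotein osteopontin, did not reach the 4-fold limit against CMK6, with a log2 ratio of -1.33, and was at -2.71 against CMK9. It was at 5.43, 92.4 and 3901 RPM in 656BTAG, 17.5, 563 and 6601 in CMK6 and 138.1, 2453 and 14792 in CMK9. Its mean in 656BTAG was 563 RPM with all cells and 52.6 RPM without cells 1, 3 and 4, when it separated the line as lower.

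A set of lower genes differed between the feeder lines as well. ABCD2, a peroxisomal fatty acid transporter gene, was at 44.6, 115.5 and 171.1 RPM in 656BTAG, 414, 468 and 3780 in CMK9 and 239, 3898 and 20071 in CMK6. No 656BTAG cell overlapped a feeder cell, and CMK6 exceeded CMK9 by 2.37 on the log2 scale. MGAT4A, a glycosyltransferase gene, was ordered the same way, with medians of 10.0 RPM in 656BTAG, 95.4 in CMK9 and 575 in CMK6. SMYD4, a putative methyltransferase gene, had medians of 11.1, 96.3 and 320 RPM in that order. CMK6 exceeded CMK9 by 2.04 for MGAT4A and by 1.52 for SMYD4 on the log2 scale. The limma differences were -4.43 ± 0.85 for ABCD2, -4.73 ± 0.77 for MGAT4A and -3.93 ± 0.61 for SMYD4 (log2, SE). ABCD2 did not pass limma, and with the shared spread MGAT4A and SMYD4 did not pass either. PPL, a desmosome-linked plakin gene, was at 5.77, 29.9 and 55.5 RPM in 656BTAG, 23.1, 228.99 and 1099 in CMK6 and 44.8, 77.3 and 1085 in CMK9, and overlapped at its edges.

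Further genes came from the 12 with the largest reductions among genes that had a symbol and reached 50 RPM in both feeder lines; less abundant genes such as NNAT had larger ratios. NOCT, a circadian phosphatase gene, was at 0.74, 3.72 and 13.9 RPM in 656BTAG, 0.87, 56.8 and 281 in CMK6 and 29.1, 83.01 and 316 in CMK9 (adjusted p = 0.0306, limma; 0.0101 with the shared spread). TSNAX, the partner of translin in RNA processing, was at 2.36, 6.32 and 16.4 RPM in 656BTAG and at no less than 17.4 RPM in CMK6 and 64.4 in CMK9. CDC42EP3, an effector of the GTPase CDC42, had medians of 9.90, 192 and 307 RPM. LCLAT1, a phospholipid acyltransferase gene chosen after its values were seen, reached 2.58 RPM in 656BTAG, where it was above 0 in 6 of 8 cells, and was at no less than 20.0 RPM in CMK6 and 14.4 in CMK9. It differed by -5.08 ± 0.58 (log2, SE; adjusted p = 0.0306, limma; 0.0228 with the shared spread), and in the PGCLCs of the same line it averaged 30.7 RPM in aRB27 and 62.8 in GK15. LCLAT1 and all 12 of those genes also separated the lines after quantile normalization.

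Genes higher in 656BTAG were fewer on the deposited scale. Of the 61, 7 with a symbol reached 50 RPM, and all 7 still separated the lines after quantile normalization. UCP2, a mitochondrial carrier typical of pluripotent cells, was at 12.4, 120 and 199 RPM in 656BTAG, 0.53, 11.8 and 66.4 in CMK6 and 4.65, 14.1 and 46.8 in CMK9 (adjusted p = 0.048, limma; 0.358 with the shared spread). The lowest 656BTAG cell lay within the range of both feeder lines. In the 656BTAG-derived PGCLCs UCP2 averaged 1076 RPM in aRB27 and 1092 in GK15. H1-10, a linker histone gene, was at 6.25, 105.5 and 160 RPM, against at most 10.4 RPM in CMK6 and 11.8 in CMK9 (adjusted p = 0.0428, limma; 0.16 with the shared spread), and overlapped them in its lowest cell. MACROH2A2, a histone variant gene, had medians of 70.7, 5.84 and 11.8 RPM (adjusted p = 0.0794, limma). PCNX2, a membrane protein gene, had medians of 111.5, 10.5 and 22.5 RPM, SDC1, a cell-surface proteoglycan gene, 57.5, 15.3 and 8.14, TBC1D31, a centrosomal gene, 54.7, 15.2 and 6.88, and POP7, a subunit of RNase P, 63.5, 13.2 and 11.6. SDC1 did not separate the lines without cells 1, 3 and 4.

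SEMA5B, SLITRK5, NTS and TAC3 were chosen after their values were seen. On the neural ectoderm list none of the 7 tested was higher, beside 0.641% of all genes tested. SEMA5B, an axon guidance gene, was at 6.11, 49.3 and 117.05 RPM in 656BTAG, at most 1.4 RPM in CMK6 and 0 in all CMK9 cells (adjusted p = 0.0872, limma; 0.0322 with the shared spread). No 656BTAG cell overlapped a feeder cell. SEMA5B averaged 0.00 and 0.09 RPM in the PGCLCs of aRB27 and GK15. SLITRK5, a synaptic adhesion gene, was above 0 in 7 of 8 656BTAG cells, with a median of 41.96 RPM, in no CMK6 cell and in 1 of 7 CMK9 cells. NTS and TAC3, which encode the peptides neurotensin and neurokinin B, were above 0 in all 8 656BTAG cells and in no feeder cell. Their means of 17.9 and 12.4 RPM were 8.38 and 1.79 RPM without cells 1, 3 and 4, when neither passed the filter on low values.

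Genes with a LOC name in place of a symbol made up 26 of the 61 higher genes (42.6%), 32 of the 308 lower (10.4%) and 450 of the 9518 tested (4.73%). The 26 were chosen as higher in 656BTAG, so the gap in their summed level between the lines follows from the choice. That level was 858 to 2970 RPM in 656BTAG, 38.2 to 72.01 in CMK6 and 40.6 to 83.7 in CMK9. It was 2693, 2900 and 2970 RPM in cells 1, 3 and 4 of 656BTAG and 858 to 1348 in the other 5. It was also high in the 12 PGCLCs, which share line and title code with the 656BTAG ESCs, at 617 to 2195 RPM. In the embryo cells it had a median of 123.9 RPM and ran from 38.2 to 552.2 RPM. The most abundant, LOC102130365, a pseudogene in the RefSeq table, was even over the cells, at 389, 482 and 581 RPM in 656BTAG and at most 7.64 RPM in CMK6 and 5.50 in CMK9 (adjusted p = 0.014, limma; 0.00373 with the shared spread). LOC107128534, by contrast, was at 1.12, 42.1 and 262 RPM in 656BTAG. Pseudogenes and gene copies can share reads, so the levels of such genes are uncertain.

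Across the lists the medians stayed close to those of all genes for proliferation (0.24 against CMK6 and 0.07 against CMK9, 20 tested, none separating), mitochondrial respiration (0.05 and -0.06, 24 tested) and the extracellular matrix (0.09 and -0.39, 22 tested, none separating). Over all genes tested 3.88% separated 656BTAG, so at that share a list of this size would hold few separating genes or none. The 26 tested genes of cholesterol and fatty acid synthesis had medians of -0.26 and -0.56, and the 17 modifiers of DNA and histones -0.31 and -0.27, with no separating gene in either. After quantile normalization KIT of the germ cell list, FZD2 of the primed list and NQO1 of the redox list counted as higher. The 8 tested early germ cell genes had medians of 0.60 and 1.00, again with none separating. NODAL and activin targets (11 tested, medians -0.06 and -0.91), BMP targets (7, 0.31 and 0.17) and neural ectoderm (7, -0.23 and -0.25) also held no separating gene, nor did the trophectoderm and amnion (6, -0.38 and 0.34), mesoderm (4, -0.29 and -1.33) and endoderm lists (2, -2.77 and -2.02). The 9 tested fibroblast genes had medians of 0.85 and -0.06, and the 14 of metals and redox 0.19 and 0.13, with SLC30A1 lower. After that scaling the medians of the mesoderm list were 0.47 and -0.47 and of the neural list 0.21 and 0.46, so that their direction turned at least in part. Those of the NODAL list were then 0.00 and -0.57, and those over all genes tested 0.09 and 0.08. The 7 tested genes of MHC class I and interferon had medians of 0.31 and 0.03. Of 11 genes of X inactivation and the Y chromosome, 1 was matched in the table and did not pass the filter.

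**Figure D5:**
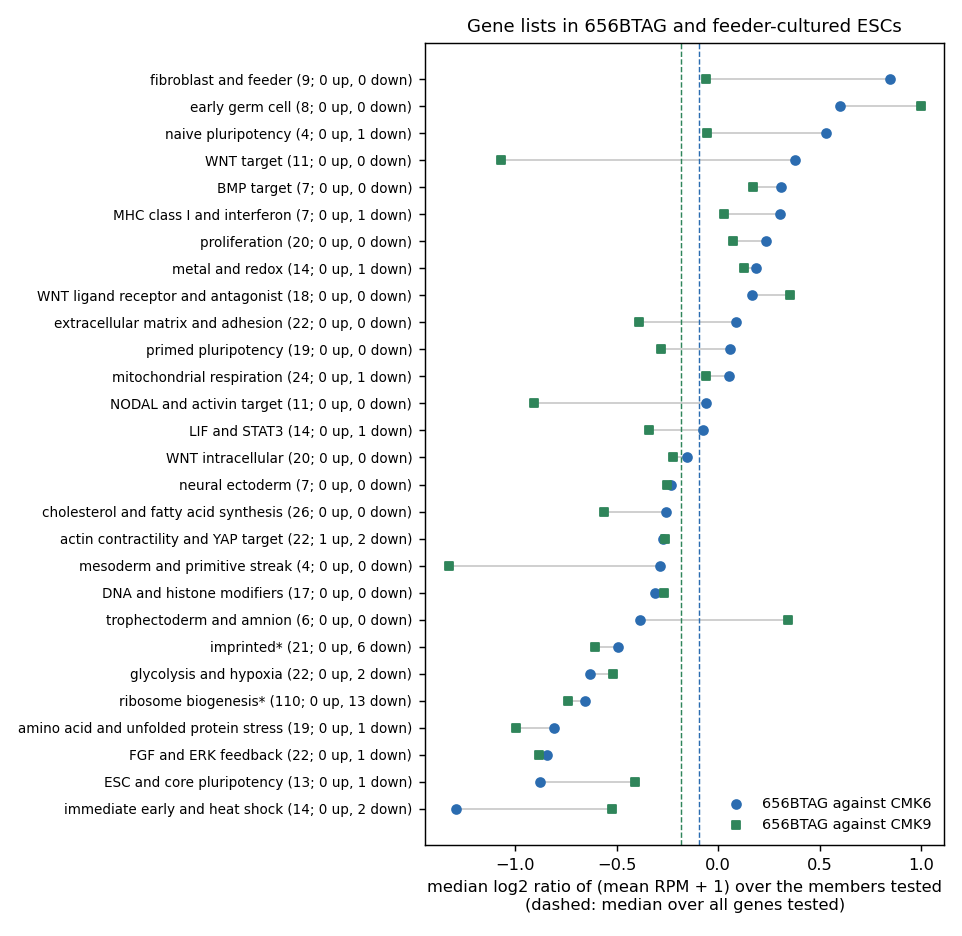
Each row is a gene list with at least 4 members tested, with the median log2 ratio of (mean RPM + 1) of 656BTAG against CMK6 (circles) and CMK9 (squares) on the x axis; labels give members tested and separating, and an asterisk a list drawn up after the values were seen. The dashed lines mark the medians of all genes, -0.10 and -0.19, and against CMK6 the immediate early and heat shock list has the lowest median, -1.29.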

How the data were processed

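Levels were taken from the table of RPM deposited by the authors, which holds 26018 genes. The tools named upstream, per the submitters' processing notes, are TopHat 1.4.1, Cufflinks 2.2.0 and cutadapt 1.3. The genome build behind the table is not given in the sources used here, and positions are left out. Columns were mapped to cells by title. Low RPM values were whole multiples of 1 read within 0.1 read in at least 99.59% of cases per ESC column, which gave each cell's depth. No molecular identifiers are described, and limits from reads therefore cover counting error alone. In all 20272 gene IDs matched the RefSeq gene table (assembly T2T-MFA8v1.1, used for names and biotypes), and 673 LOC genes took their RefSeq symbol from it.

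Ratios are of (mean RPM + 1), which understates changes of low genes. Separating genes were counted by size, with no test. The test was limma 3.58.1 (R 4.3.3, eBayes with trend) on 3 line means, Benjamini-Hochberg adjusted over 9518 genes, with 1 residual degree of freedom; p-values measure only the spread between the lines. In simulated data for this comparison with 9518 genes, limma recovered 24 of 100 genes changed 4-fold and 67 of 100 changed 16-fold, with 8 false calls. edgeR 4.0.16 was run on recovered reads summed per line. Named genes were the 12 in each direction with the largest smaller log2 ratio, at 50 RPM or more in the higher line (or in both feeder lines) and with a symbol (7 were found higher), the members of the WNT target list (1 is not reported here), members of the 28 lists that separate the lines, and 15 genes set by name, of which XIST was not analysed here. Other list members are examples, and genes on no list were chosen after their values were seen. Lists were described by counts and medians. The members and lists were chosen with earlier results of these data known.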

Additional observations from a re-analysis of the deposited data

Results flagged for a closer look

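Among 70 sets of cells of 656BTAG or CMK9, 12 had a highest or lowest cell far from the others by Dixon's test. The sets covered 33 genes, on log2(RPM + 1), and the reads and genes above 0 per cell. CMK6 was not tested in this way. Chance flags about 1 in 20 where values follow a normal distribution. Where all other cells are at 0, the flag is certain and that rate does not apply. In 656BTAG a single cell was far below the rest for H1-10 (6.25 RPM), UCP2 (12.4 RPM), PCNX2 (4.05 RPM), MACROH2A2 (2.21 RPM), SDC1 (6.75 RPM) and NANOG (0.36 RPM). A single cell was far above the rest for PRDM14 in CMK9 (554 RPM), AXIN2 in CMK9 (7.31 RPM) and SP5 in CMK9 (1.57 RPM). TFCP2L1 had such a cell in 656BTAG (0.44 RPM) and in CMK9 (6.88 RPM), and LEF1 in 656BTAG (2.2 RPM); in these and in AXIN2 and SP5 all other cells of the line were at 0.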

How the results depend on the processing

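Genes separating 656BTAG were 3.88% of the genes tested. They were 0.788% (75 genes) with a pseudocount of 10 RPM, 1.55% with no filter (404 genes of 26018), 6.36% with medians over cells, 10.4% (986 genes) at 2-fold, 1.39% at 8-fold, 0.557% (53 genes) where no cells may overlap and 6.46% (615 genes) with no condition on cells. They were 7.83% against CMK9 alone, 6.62% against CMK6 alone and 7.69% (735 genes, 307 of them shared) without cells 1, 3 and 4 of 656BTAG, a choice made after seeing the data. Leaving out each 656BTAG cell in turn gave 3.87% to 4.78%, and thinning all cells to the same depth, also added later, 3.75%. Differences between CMK6 and CMK9, 1.62%, were 0.221% with a pseudocount of 10 RPM, 0.73% with no filter, 3% with medians, 2.76% with means of log2 values, 5.89% at 2-fold, 0.462% at 8-fold, 0.0946% (9 genes) where no cells may overlap, 3.05% with no condition on cells and 6.37% with the 3 MS132 cells alone as CMK6. Calls by limma, 1.96%, were 0.452% (43 genes) with a pseudocount of 10 RPM, 3.68% with no filter (939 genes higher and 19 lower), 5.73% without cells 1, 3 and 4, 0.105% (10 genes) with the shared spread and 0 after quantile normalization, where 1863 genes had an unadjusted p under 0.05. By edgeR on recovered reads, an alternative added later, they were 4.09%. The cause of these shifts was not tested. Of 2482 ratios of named genes under alternatives, 675 moved by more than the spread between the feeder lines, 1807 did not, and no separating gene changed direction. No paired analysis was possible because no number or title code pairs 656BTAG cells with feeder cells; the code MS130 is shared only between CMK6 and CMK9.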
